A study of Mus musculus with 8 samples.

Results

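The epidermal differentiation complex is a dense cluster of genes on mouse chromosome 3 whose products build and harden the outer layers of stratified epithelium. Its members were the rows on that chromosome whose symbol begins with S100a, Sprr or Lce, or is one of 11 single names: Lor, Ivl, Flg, Flg2, Hrnr, Rptn, Tchh, Tchhl1, Crnn, Crct1 and Kprp. That rule uses no measured value and took 56 of 23235 rows in the authors' deposited table. Flg had no row and is not analysed here. The groups were 4-NQO-treated female C57BL/6 mice with squamous cell carcinoma of the tongue (3 samples) and untreated female C57BL/6 mice with normal tongue (5 samples). 4-NQO, 4-nitroquinoline 1-oxide, is a carcinogen used to induce oral cancer in rodents. Dose, time, age and whether samples came from separate animals were not stated in the labels. Poly(A) RNA of whole tongue tissue or tumour was sequenced.

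Keratinocytes of a stratified epithelium end their life as flat cells wrapped in a cornified envelope. Transglutaminases cross-link loricrin, involucrin, the small proline-rich (Sprr) proteins and the late cornified envelope (Lce) proteins into that shell. The S100-fused proteins, such as cornulin, repetin, hornerin and trichohyalin, join an S100 calcium-binding domain to long repeats and bind the envelope to keratin filaments. The S100a genes at both ends of the cluster encode small calcium sensors that act in keratinocytes, leukocytes, muscle and other cells. Sprr2 genes are known as genes that keratinocytes and other epithelia switch on under stress, and S100a8 and S100a9 as products of neutrophils and of injured epithelium.

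Every level is the single FPKM (fragments counted per transcript length and library size) that the authors' deposited table lists for a group, so no value per sample can be shown and the overlap of the groups cannot be seen. Calls rest on the q-value of that table, a p-value corrected for many tests, with a limit of 0.05. Behind each ± stands the standard error that the authors' test implies for the log2 ratio of carcinoma over normal, and a 95% interval was taken as 1.96 such errors on either side. How far that error reflects the spread between samples is not known. In these samples of whole tissue, fewer cells of a type and less RNA per cell cannot be told apart. The counts and depth behind the values are unknown.

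The Sprr2 genes stood out by their direction, and the sequences in front of them are shown first because most of them share an arrangement. RefSeq promoters (build GRCm38.p6) were found for 48 of the 56 members, among them 8 of the 10 Sprr2 rows. The 200 bases before the annotated start of those 8 genes, all on the plus strand, follow, 5′ to 3′. Capitals mark matches, on either strand, to TGANTCA (the AP-1 motif, bound by Fos and Jun proteins), ATTTGCAT (the octamer motif of POU-domain factors) and TATAAA (the TATA box).
Sprr2a2, chr3:92250447-92250646: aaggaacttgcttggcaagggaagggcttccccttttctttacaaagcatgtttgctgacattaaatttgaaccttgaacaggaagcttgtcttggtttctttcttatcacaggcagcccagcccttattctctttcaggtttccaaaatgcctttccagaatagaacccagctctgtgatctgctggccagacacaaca
Sprr2b, chr3:92316505-92316704: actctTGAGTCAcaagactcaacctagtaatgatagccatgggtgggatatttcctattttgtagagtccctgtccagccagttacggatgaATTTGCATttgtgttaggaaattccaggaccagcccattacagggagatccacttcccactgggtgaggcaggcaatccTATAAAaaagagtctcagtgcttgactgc
Sprr2d, chr3:92338940-92339139: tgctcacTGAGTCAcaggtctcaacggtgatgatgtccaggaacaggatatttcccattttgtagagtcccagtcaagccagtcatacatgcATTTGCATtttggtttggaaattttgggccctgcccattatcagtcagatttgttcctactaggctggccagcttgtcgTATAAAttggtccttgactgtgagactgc
Sprr2e, chr3:92351943-92352142: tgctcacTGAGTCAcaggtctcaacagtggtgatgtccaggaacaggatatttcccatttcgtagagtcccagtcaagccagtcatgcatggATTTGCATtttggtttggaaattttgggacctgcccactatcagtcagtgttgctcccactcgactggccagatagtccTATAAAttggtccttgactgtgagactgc
Sprr2f, chr3:92364987-92365186: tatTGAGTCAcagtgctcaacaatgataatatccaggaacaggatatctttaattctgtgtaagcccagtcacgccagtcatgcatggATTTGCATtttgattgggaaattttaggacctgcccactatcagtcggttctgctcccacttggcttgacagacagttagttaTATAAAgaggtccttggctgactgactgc
Sprr2h, chr3:92385485-92385684: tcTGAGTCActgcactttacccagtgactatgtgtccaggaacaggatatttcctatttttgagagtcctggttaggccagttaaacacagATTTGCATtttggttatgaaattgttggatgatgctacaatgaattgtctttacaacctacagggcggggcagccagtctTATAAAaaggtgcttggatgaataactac
Sprr2i, chr3:92407791-92407990: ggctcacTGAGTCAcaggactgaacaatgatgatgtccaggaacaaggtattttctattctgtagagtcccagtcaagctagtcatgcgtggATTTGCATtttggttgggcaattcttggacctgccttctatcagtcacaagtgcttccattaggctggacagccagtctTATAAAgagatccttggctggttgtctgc
Sprr2k, chr3:92432382-92432581: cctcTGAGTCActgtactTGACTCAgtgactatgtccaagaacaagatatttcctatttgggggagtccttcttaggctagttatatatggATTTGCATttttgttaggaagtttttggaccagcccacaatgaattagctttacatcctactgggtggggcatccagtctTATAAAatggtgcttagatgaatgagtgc

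Counting the base before the start as −1, the octamer began between −112 and −108 and the TATA box at −29 in 7 of these 8 genes. Each of those 7 also had an AP-1 match that began between −198 and −193, and Sprr2k had a further one at −182. Sprr2a2 held none of the 3 in its window. Its row is the longest of the Sprr2 rows in the authors' deposited table, and sequence further inside it was not searched. In windows of 300 bases (250 before the start and 50 from it), AP-1 was matched in 7 of 8 Sprr2 promoters and in 7.81% of all 32851 promoters. The octamer was matched in 7 of 8 and in 1.74%, and TATAAA in 7 of 8 and in 13.6%. All 3 together were found in 7 of the 48 members with a promoter, each of them an Sprr2 gene, and in 16 (0.0487%) of all promoters. Of the members with a promoter, AP-1 was matched in 8 of 11 that rose and in 7 of 34 that did not pass, and 7 of those 8 are the Sprr2 genes shown. Of the pair that fell, Crnn had a match and Lce1l had none. By subfamily, AP-1 was also matched in 4 of 6 S100-fused promoters and in those of Lor and Ivl, whose tested genes all had negative fold changes, and in 2 of 11 S100a promoters. The other 4 motifs searched were GGAAGT (ETS factors; 2 of 8 Sprr2 promoters and 23.8% of all), the NF-kB motif (0 of 8 and 0.411%), TTCNNNGAA (STAT; 1 of 8 and 8.30%) and CACCC (KLF; 3 of 8 and 57.5%). The Sprr1 genes had AP-1 and TATA matches and no octamer, and no Lce1 or Lce3 promoter matched AP-1 or the octamer. These copies are paralogs and share ancestry, so their promoters are not independent, and a match is a description of letters only.

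**Figure D1:**
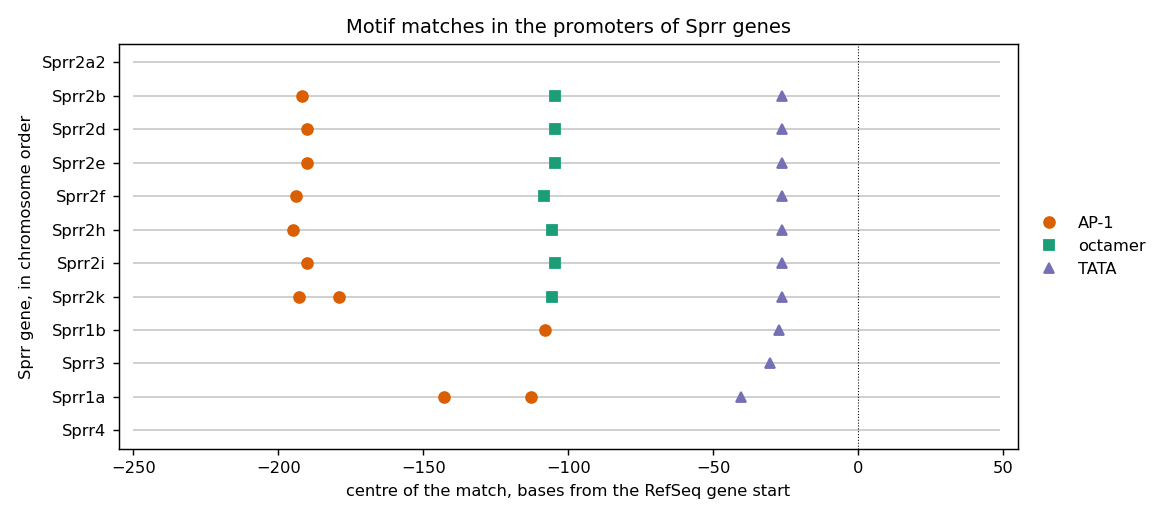
Centres of AP-1, octamer and TATA matches (x axis, bases from the RefSeq gene start) in the promoters of 12 Sprr genes, 1 line per gene in chromosome order. The 7 Sprr2 genes from Sprr2b to Sprr2k carry an octamer that begins between −112 and −108 and a TATA box that begins at −29. Sprr2a2 and Sprr4 have no match in the window at their annotated start. Sequence further inside the long Sprr2a2 row was not searched.

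In the authors' deposited table, 55 of the 56 members had status OK and could be compared. Of these, 13 rose and 2 fell in 4-NQO carcinomas, beside 3.07% higher and 3.19% lower (6.26% in either direction) of all 15783 tested rows. The risers were all 10 Sprr2 rows, Sprr1b, S100a8 and S100a9. Crnn and Lce1l fell. The other 40 did not pass, with errors wide enough that a member of median error needed a log2 difference of 2.15 to be called. At an unadjusted p under 0.05 there were 15 higher and 12 lower members, beside 8.22% and 12.5% of tested rows. The members' median log2 fold change was 0.11, against −0.04 over all tested rows with a finite fold. At q under 0.01 the counts were 12 higher and 1 lower (1.96% and 1.65% of tested rows), and with an added limit of 4-fold 13 higher and 1 lower (2.48% and 1.19%). With that limit on levels plus 1 FPKM they were 13 higher and 1 lower (1.12% and 0.608%). A Benjamini-Hochberg adjustment over tested rows alone gave 13 higher and 6 lower (3.98% and 5.02%), adding Tchh, Hrnr, Lce1h and Lce1i. Flg2 was not tested, at 0.00435 FPKM in carcinomas and 0.00186 FPKM in normal tongues.

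**Figure D2:**
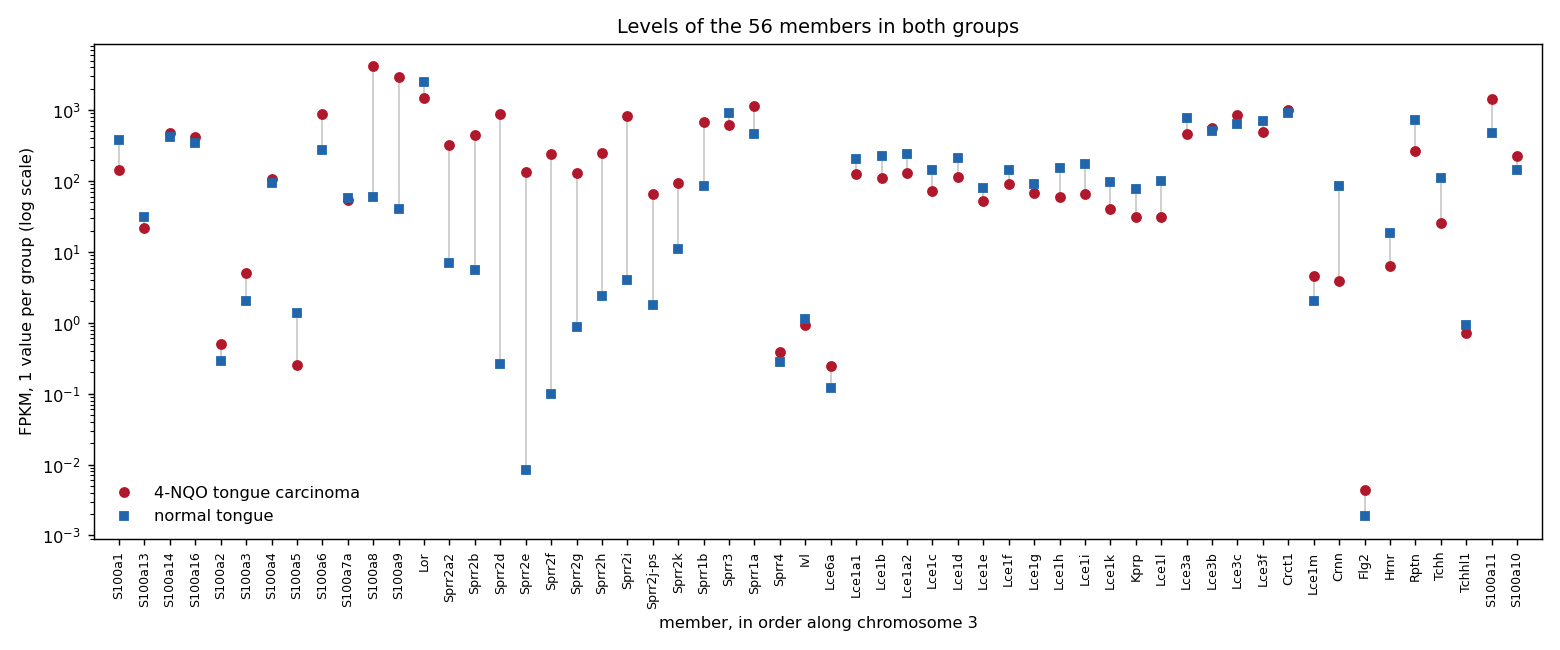
FPKM of the 56 members (y axis, log scale) in 4-NQO tongue carcinomas (red circles) and normal tongues (blue squares), 1 value per group, in order along chromosome 3. The widest gaps are in the Sprr2 run, S100a8 and S100a9, and the Lce1 run shows the carcinoma value below the normal value at every gene from Lce1a1 to Lce1l.

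The cluster spans chr3:90314956-93368567 in the table's own coordinates, whose mouse build is not given in the sources used here. Summed over all 56 rows, the deposited FPKM came to 22812 in carcinomas and 12718 in normal tongues, a ratio of 1.79. S100a genes held 47.5% of that sum in carcinomas and 18.3% in normal tongues. Most of their level in carcinomas was S100a8 and S100a9, without which they summed to 3794 FPKM in carcinomas and 2234 FPKM in normal tongues. A share also depends on the total: Lce3 held 10.3% in carcinomas and 20.7% in normal tongues, at a ratio of sums of 0.89. Sprr2 genes held 14.9% in carcinomas and 0.259% in normal tongues. Lce1 genes held 4.23% in carcinomas and 14.6% in normal tongues, and the S100-fused genes 1.32% in carcinomas and 7.33% in normal tongues. Summed Sprr2 was 2.33 times the loricrin level in carcinomas and 0.0132 times in normal tongues.

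**Figure D3:**
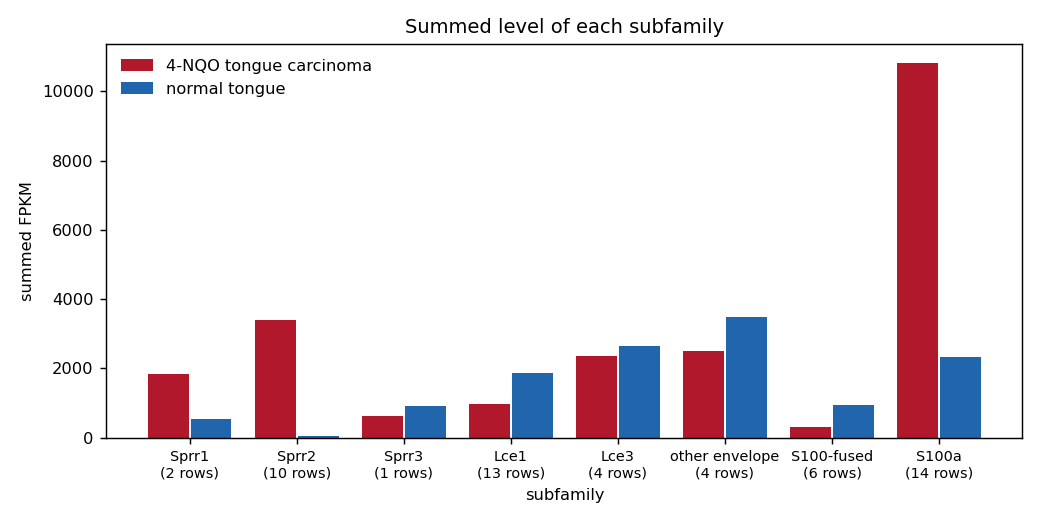
Summed FPKM of each subfamily (y axis from 0) in 4-NQO tongue carcinomas (red, left bar) and normal tongues (blue, right bar), 1 value per group and no error. Sprr2 sums to 3405 FPKM in carcinomas and 32.9 FPKM in normal tongues and S100a to 10828 FPKM in carcinomas and 2334 FPKM in normal tongues, while the Lce1, Lce3 and S100-fused sums are lower in carcinomas. Without S100a8 and S100a9 the S100a sum is 3794 FPKM in carcinomas and 2234 FPKM in normal tongues.

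Small proline-rich proteins are short, flexible bridges that transglutaminases join into the envelope. All 10 Sprr2 rows, which lie side by side over 183 kb (chr3:92054569-92237849), rose in the authors' deposited table. Their levels ran from 66.4 to 896 FPKM in carcinomas and from 0.0084 to 11.04 FPKM in normal tongues. These are ranges across related genes at 1 value per group and do not show the spread between samples. The median log2 fold change was 6.98, and 6.18 when 1 FPKM was added to both levels.

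The most abundant copies in carcinomas were Sprr2d and Sprr2i. In the authors' deposited table Sprr2i stood at 824 FPKM in carcinomas and 4.00 FPKM in normal tongues (log2 fold change 7.69 ± 0.78, q listed as 0). Sprr2d made up 26.3% of the Sprr2 sum in carcinomas and 0.807% in normal tongues. In normal tongues the leading copy was Sprr2k instead, with 33.5% of the sum, against 2.76% in carcinomas. Sprr2k stood at 93.8 FPKM in carcinomas and 11.04 FPKM in normal tongues, and its fold was the smallest of the family (3.09 ± 0.57, q = 7.14e-06).

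The largest folds belonged to the copies with the lowest normal levels. Sprr2d, Sprr2e and Sprr2f, which neighbour each other, had 896, 133 and 237 FPKM in carcinomas and 0.266, 0.0084 and 0.1004 FPKM in normal tongues in the authors' deposited table. Their log2 fold changes were 11.72 ± 1.27 for Sprr2d (q listed as 0), 13.95 ± 3.76 for Sprr2e (q = 0.0114) and 11.21 ± 1.31 for Sprr2f (q listed as 0). These rest on normal values close to 0, and after adding 1 FPKM to both levels they were 9.47 for Sprr2d, 7.06 for Sprr2e and 7.76 for Sprr2f. The error of Sprr2e was the widest among the members, and its interval ran from 6.58 to 21.3. Sprr2b stood at 451 FPKM in carcinomas and 5.56 FPKM in normal tongues (6.34 ± 0.75, q listed as 0), and Sprr2h at 245 FPKM in carcinomas and 2.35 FPKM in normal tongues (6.71 ± 0.74, q listed as 0). The copies whose RefSeq transcript record is non-coding rose with the others: Sprr2g was listed at 132 FPKM in carcinomas and 0.869 FPKM in normal tongues (7.24 ± 0.82, q listed as 0). Sprr2j-ps, a pseudogene by its symbol, was listed at 66.4 FPKM in carcinomas and 1.77 FPKM in normal tongues (5.23 ± 0.70, q = 3.84e-11).

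Because the copies resemble each other, the assignment of reads among them bears on each single value. In GENCODE M21 transcripts, 96.5% of the 50-base words of Sprr2a2 also occur in Sprr2a1, which has no row of its own here. The Sprr2a2 value, 325 FPKM in carcinomas and 6.95 FPKM in normal tongues (5.55 ± 1.41, q = 0.00539 in the authors' deposited table), therefore cannot be given to 1 locus. The other 9 Sprr2 genes shared between 0% and 14.1% of their words with any other gene. Sprr2g, Sprr2h and Sprr2k shared none. Word length was set at 50, since the authors' read length and treatment of shared reads were not stated in the labels.

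**Figure D4:**
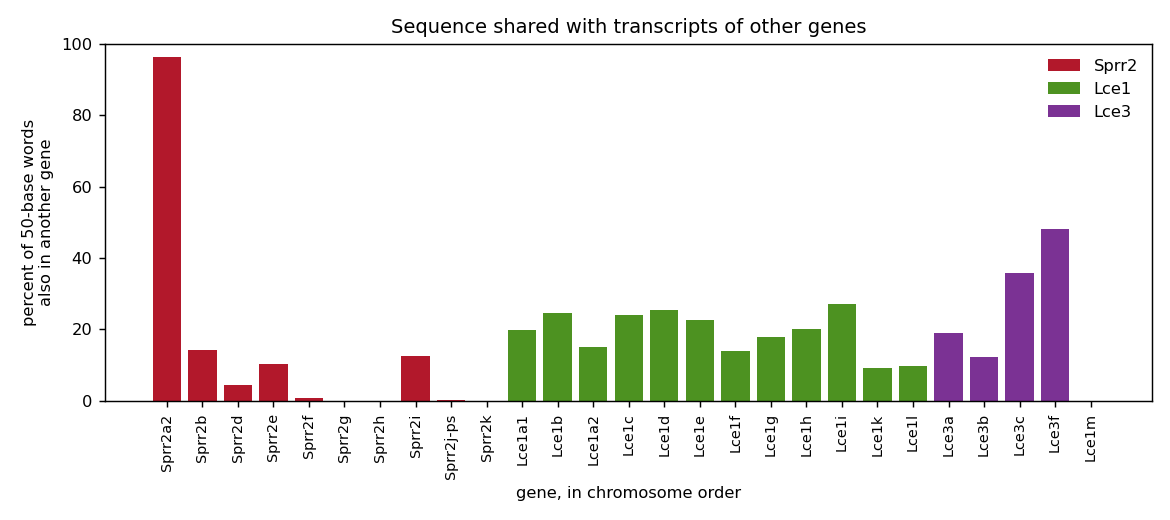
Percent of the distinct 50-base words of each Sprr2, Lce1 and Lce3 gene's GENCODE M21 transcripts that also occur in a transcript of another gene (y axis, 0 to 100), in chromosome order. Sprr2a2 reaches 96.5%, the other Sprr2 genes stay at or below 14.1%, Lce1 genes at or below 27.1%, and Lce3f has the highest Lce value at 48.04%.

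Of the 4 remaining Sprr genes, which lie next to the Sprr2 run, 1 passed. Sprr1b rose, at 684 FPKM in carcinomas and 86.4 FPKM in normal tongues (2.98 ± 0.75, q = 0.00488 in the authors' deposited table). Its close relative Sprr1a was already abundant in normal tongues, at 1151 FPKM in carcinomas and 458 FPKM in normal tongues, and did not pass (1.33 ± 0.88, q = 0.938). The level of Sprr1a was thus 1.68 times that of Sprr1b in carcinomas and 5.29 times in normal tongues. Sprr3, the small proline-rich protein of oral and oesophageal epithelium, was listed at 624 FPKM in carcinomas and 903 FPKM in normal tongues, and its interval of −2.51 to 1.44 holds both a fall and a rise. Sprr4 was under 0.4 FPKM in both groups. A test of the difference in fold between Sprr2 and these neighbours was not made.

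Loricrin, Lor, the bulk protein of the envelope in epidermis, was the most abundant member in normal tongues. It was listed at 1464 FPKM in carcinomas and 2485 FPKM in normal tongues in the authors' deposited table (−0.76 ± 1.99, q = 1.00), an error at which a log2 difference of 6.39 would have been needed for a call. Involucrin, Ivl, an early scaffold of the envelope, was scarce, at 0.939 FPKM in carcinomas and 1.12 FPKM in normal tongues. Crct1, which encodes a small cysteine-rich protein of squamous epithelium, was listed at 1004 FPKM in carcinomas and 913 FPKM in normal tongues (0.14 ± 0.81). Kprp, a proline-rich keratinocyte protein whose gene sits inside the Lce1 run, was listed at 31.1 FPKM in carcinomas and 76.7 FPKM in normal tongues (−1.30 ± 0.50, q = 0.218). None of these 4 genes passed, and Kprp alone of them had an unadjusted p under 0.05.

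Late cornified envelope proteins are added to the inside of the shell at the end of differentiation. In the authors' deposited table the 12 Lce1 genes from Lce1a1 to Lce1l had a negative log2 fold change at every gene, from −1.65 to −0.41, where 52.4% of all tested rows were below 0. Levels ran from 31.5 to 130 FPKM in carcinomas and from 78.9 to 239 FPKM in normal tongues, so the ranges of the groups overlapped across genes. The summed level of these 12 was 962 FPKM in carcinomas and 1858 FPKM in normal tongues. Lce1l fell (31.5 FPKM in carcinomas and 98.8 FPKM in normal tongues, −1.65 ± 0.48, q = 0.0274), and the other 11 did not pass. Intervals lay wholly below 0 for 6 of the 12, where 12.5% of all tested rows were lower at an unadjusted p under 0.05. These genes share words of sequence with each other and their values are not independent.

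Position within the run went with the size of the difference, a split that was chosen after the values were seen and was not tested. From Lce1a1 to Lce1g (chr3:92450454-92556260), 8 genes had log2 fold changes of −1.01 to −0.41. From Lce1h to Lce1l with Kprp (chr3:92567137-92655208), 5 genes had −1.65 to −1.30, and those ranges did not meet. In the authors' deposited table Lce1h stood at 59.6 FPKM in carcinomas and 155 FPKM in normal tongues (−1.38 ± 0.47, q = 0.101) and Lce1i at 66.3 FPKM in carcinomas and 174 FPKM in normal tongues (−1.39 ± 0.48, q = 0.115). Lce1k stood at 39.7 FPKM in carcinomas and 97.9 FPKM in normal tongues (−1.30 ± 0.48). In the first stretch Lce1b (111 FPKM in carcinomas and 224 FPKM in normal tongues) and Lce1c (71.4 FPKM in carcinomas and 143 FPKM in normal tongues) had intervals below 0. Those with the highest carcinoma levels were Lce1a2 (130 FPKM in carcinomas and 239 FPKM in normal tongues), Lce1a1 (125 FPKM in carcinomas and 204 FPKM in normal tongues) and Lce1d (116 FPKM in carcinomas and 210 FPKM in normal tongues). Lce1f stood at 91.5 FPKM in carcinomas and 144 FPKM in normal tongues, and Lce1e at 51.6 FPKM in carcinomas and 78.9 FPKM in normal tongues. The smallest difference was that of Lce1g, which stood at 68.1 FPKM in carcinomas and 90.4 FPKM in normal tongues (−0.41 ± 0.47). With errors near 0.48 the intervals of genes in both stretches overlap. Lce1m, which lies apart beyond the Lce3 genes, was low, at 4.52 FPKM in carcinomas and 2.03 FPKM in normal tongues (1.15 ± 0.73).

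Lce3 genes are known in human skin as the Lce group that injury induces. Here they were already abundant in normal tongues, from 516 to 782 FPKM, and ran from 462 to 845 FPKM in carcinomas. None of the 4 passed in the authors' deposited table, and none had an unadjusted p under 0.05. Lce3c was listed at 845 FPKM in carcinomas and 631 FPKM in normal tongues (0.42 ± 0.67), and Lce3a at 462 FPKM in carcinomas and 782 FPKM in normal tongues (−0.76 ± 0.60). Lce3b was listed at 557 FPKM in carcinomas and 516 FPKM in normal tongues, and Lce3f at 489.98 FPKM in carcinomas and 707 FPKM in normal tongues. With errors of 0.60 to 0.67 these data allow changes of between a fall of 1.93 and a rise of 1.73 on the log2 scale. Summed Lce3 was 2.44 times summed Lce1 in carcinomas and 1.42 times in normal tongues. Lce3c and Lce3f share many words with other Lce3 copies, and their single values are uncertain. Lce6a was under 0.3 FPKM in both groups.

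**Figure D5:**
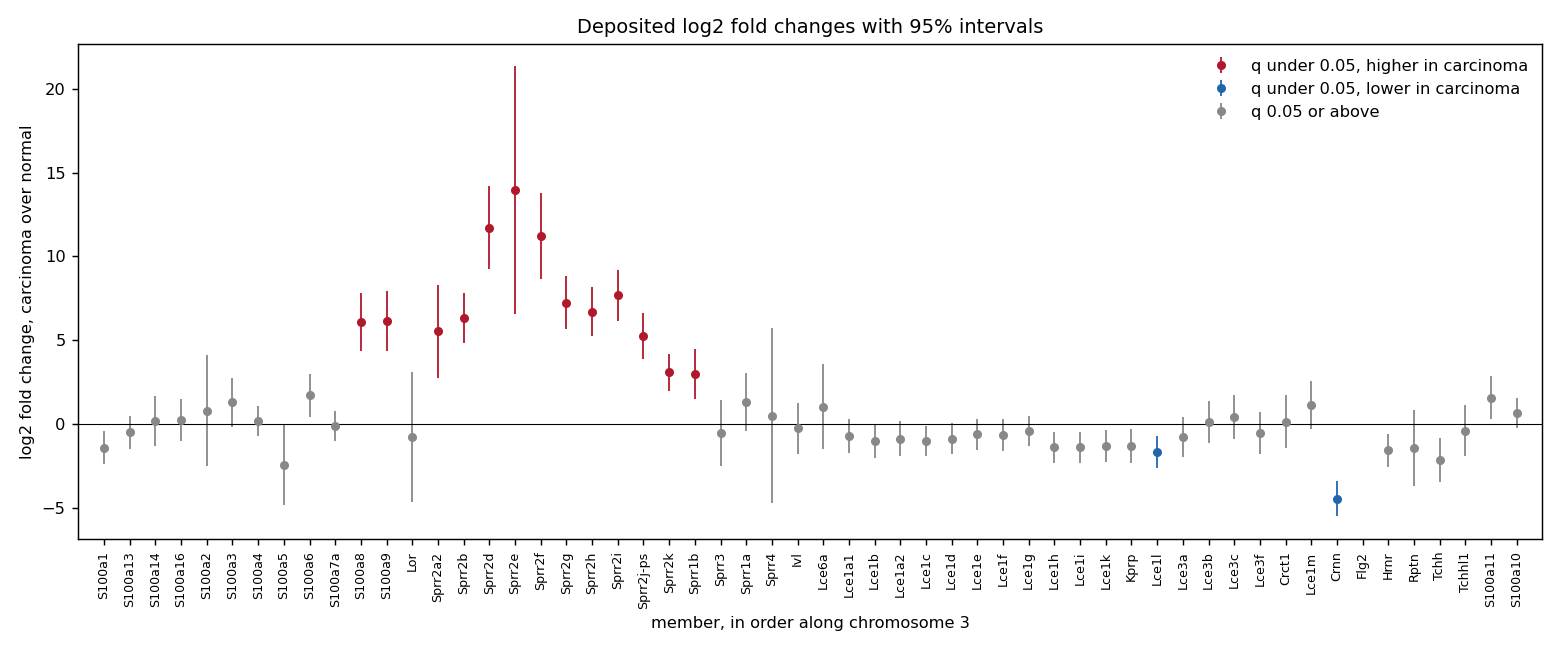
Deposited log2 fold change, carcinoma over normal, of the 55 tested members in order along chromosome 3, with 95% intervals from the implied standard error. Red points rose, blue points fell and grey points did not pass; Flg2 has no point. The raised genes form a run from Sprr2a2 to Sprr1b plus the pair S100a8 and S100a9.

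All 5 tested S100-fused genes had negative log2 fold changes, with a median of −1.57. Crnn, cornulin, a marker of late differentiation in oral and oesophageal epithelium, fell 21.7-fold: the authors' deposited table lists it at 3.92 FPKM in carcinomas and 84.98 FPKM in normal tongues (−4.44 ± 0.54, q = 1.59e-13). Its gene lies at chr3:92948709-92953393. Tchh, trichohyalin, which hardens the inner root sheath of hair and the filiform papillae of tongue, was listed at 25.3 FPKM in carcinomas and 112 FPKM in normal tongues and missed the limit (−2.14 ± 0.67, q = 0.0542). Hrnr, hornerin, was listed at 6.23 FPKM in carcinomas and 18.5 FPKM in normal tongues (−1.57 ± 0.50, q = 0.0632). Rptn, repetin, the most abundant of the class, was listed at 265 FPKM in carcinomas and 716 FPKM in normal tongues, with an interval of −3.71 to 0.84. Tchhl1 was under 1 FPKM in both groups.

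Among genes listed as markers of hair cortex and filiform papilla, all 9 had negative fold changes beside these values and 6 fell in the authors' deposited table, where 52.4% of all tested rows were below 0 and 3.19% fell. The hair keratins with the largest falls were Krt33a (−4.31 ± 0.72), Krt86 (−4.03 ± 0.58), Krt35 (−3.82 ± 0.60) and Krt34 (−3.82 ± 0.57). The summed level of all 9 listed genes was 18.7 FPKM in carcinomas and 212 FPKM in normal tongues. Single genes of the 9 ran from 0.561 to 4.15 FPKM in carcinomas and from 2.13 to 49.4 FPKM in normal tongues. None was at 0. Of the oral differentiation keratins that could be tested, both Krt76 and Krt36 fell, while Krt4, Krt13 and Krt84 are failed estimates listed at 0. In the keratinocyte list 10 of 11 tested genes had positive fold changes and none passed, with 4 higher and 1 lower at an unadjusted p under 0.05. Among all tested rows 8.22% were higher and 12.5% lower at that limit. Krt14 is a failed estimate. The keratinocyte sum was 6484 FPKM in carcinomas and 2457 FPKM in normal tongues. Krt5 alone gave 3201 FPKM of it in carcinomas and 843 FPKM in normal tongues, with a wide error (1.93 ± 2.38). Of the epidermal suprabasal keratins tested, Krt1 rose and Krt10 did not pass. Of 6 fibroblast genes 1, Lum, fell and none rose, beside 3.19% and 3.07% of all tested rows. The part of these cell types in the values of the S100-fused and Lce1 genes was not tested.

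S100 proteins are calcium sensors that pair up and bind target proteins when calcium rises. S100a8 and S100a9, which pair as calprotectin, a protein that binds metals and calcium and acts against microbes, were the S100a genes that rose. S100a8 stood in the authors' deposited table at 4134 FPKM in carcinomas and 59.7 FPKM in normal tongues (6.11 ± 0.88, q = 1.43e-09), and S100a9 at 2900 FPKM in carcinomas and 40.4 FPKM in normal tongues (6.17 ± 0.92, q = 4.52e-09). The 30 failed estimates (HIDATA), Krt4, Krt13 and Krt14 among them, have no rank here. Among the 15783 tested rows, S100a8 ranked 2 by FPKM in carcinomas and 1209 in normal tongues. S100a9 ranked 10 in carcinomas and 1754 in normal tongues. Their levels stayed in nearly the same proportion, S100a8 being 1.43 times S100a9 in carcinomas and 1.48 times in normal tongues.

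Mature neutrophils are a cell type that makes both. Of 11 tested genes on the mature neutrophil list, 8 had positive fold changes and 3 (Clec4d, Il1f9 and Trem1) rose in the authors' deposited table. None fell. Among all tested rows 52.4% were below 0, 3.07% rose and 3.19% fell. At an unadjusted p under 0.05, 6 of the 11 were higher and 1 lower, beside 8.22% and 12.5% of all tested rows. The sum of the 11 was 101 FPKM in carcinomas and 29.8 FPKM in normal tongues. The 3 with negative fold changes were Cd177 (−2.80 ± 1.13, the gene that was lower at an unadjusted p), Mmp8 (−1.17 ± 1.09) and Retnlg (−0.67 ± 0.91). Clec4d, Trem1, Cd177, Mmp8 and Retnlg were below 5 FPKM in both groups and are named after their values were seen. Without Il1f9, which keratinocytes also make and which was set aside after its value was seen, the sums were 16.4 FPKM in carcinomas and 7.08 FPKM in normal tongues. Single genes of the 11 ran from 0.0622 to 84.3 FPKM in carcinomas and from 0.0679 to 22.7 FPKM in normal tongues. Of 8 neutrophil precursor genes 3 fell (Camp, Ngp and, below 5 FPKM and named after its value was seen, Mpo) and 0 rose. The shares of all tested rows were 3.19% and 3.07%. At an unadjusted p under 0.05, 6 were lower and 0 higher, beside 12.5% and 8.22%. The median log2 fold change of these 8 genes was −4.77. Their sum of 40.9 FPKM in carcinomas and 48.9 FPKM in normal tongues was mostly Ltf, at 34.9 FPKM in carcinomas and 25.5 FPKM in normal tongues. The macrophage list had no call among 6 tested genes, and 1 had an unadjusted p under 0.05, on the lower side (12.5% of all tested rows). The share of calprotectin transcripts that came from neutrophils was not tested.

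No other S100a gene passed, and 2 more were higher and 2 lower at an unadjusted p under 0.05, beside 8.22% and 12.5% of all tested rows. S100a6, calcyclin, was listed at 894 FPKM in carcinomas and 273 FPKM in normal tongues in the authors' deposited table (1.71 ± 0.66, q = 0.222). S100a11, an annexin A1 partner found in the cornified envelope, was listed at 1443 FPKM in carcinomas and 480 FPKM in normal tongues (1.59 ± 0.66, q = 0.309), and 41.1% of its words also occur in Gm12854. The intervals of both lay above 0. S100a10, which lies beside S100a11 and whose product binds annexin A2, was listed at 229 FPKM in carcinomas and 144 FPKM in normal tongues (0.66 ± 0.46).

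S100a1, the S100 protein of striated muscle, was listed at 145 FPKM in carcinomas and 383 FPKM in normal tongues (−1.40 ± 0.51, q = 0.159 in the authors' deposited table). Beside it, each of the 5 muscle genes tested had a negative fold change and 1, Myh2, fell. Their sum was 2425 FPKM in carcinomas and 7313 FPKM in normal tongues. That sum was mostly Mb, at 2007 FPKM in carcinomas and 5751 FPKM in normal tongues, which did not pass (−1.52 ± 2.41). Among all tested rows 52.4% were below 0 and 3.19% fell. Another 5 muscle genes are failed estimates, and the part of muscle in the S100a1 value was not tested. S100a14 and S100a16, both of epithelium, did not pass. S100a14 had 481 FPKM in carcinomas and 420 FPKM in normal tongues, and S100a16 had 415 FPKM in carcinomas and 348 FPKM in normal tongues. S100a4, a gene of motile fibroblasts and leukocytes, had 107 FPKM in carcinomas and 92.9 FPKM in normal tongues, with 47.4% of its words also in Gm42674. S100a7a, of the psoriasin group, had 53.3 FPKM in carcinomas and 56.97 FPKM in normal tongues (−0.10 ± 0.45). S100a13 had 21.9 FPKM in carcinomas and 30.6 FPKM in normal tongues, and S100a3, known from the hair cuticle, had 5.06 FPKM in carcinomas and 2.04 FPKM in normal tongues. S100a2 and S100a5 were under 2 FPKM in both groups, S100a5 at 0.2502 FPKM in carcinomas and 1.36 FPKM in normal tongues (−2.44 ± 1.22). The S100a genes other than S100a8 and S100a9 thus had a median log2 fold change of 0.23, with a range of −2.44 to 1.71.

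Genes outside the cluster that act on or with its products were read from 3 lists. Of 18 tested genes that cross-link or scaffold the envelope, the authors' deposited table had 3 that rose and 0 that fell. Among all tested rows 3.07% rose and 3.19% fell. At an unadjusted p under 0.05, 4 were higher and 0 lower, beside 8.22% and 12.5% of all tested rows. The risers were the suprabasal keratin Krt1 (38.2 FPKM in carcinomas and 2.42 FPKM in normal tongues, 3.98 ± 0.55, q = 1.98e-10), and the cysteine protease inhibitors Csta (84.1 FPKM in carcinomas and 17.5 FPKM in normal tongues, 2.27 ± 0.59, q = 0.00791) and Cstb (300.5 FPKM in carcinomas and 85.98 FPKM in normal tongues, 1.81 ± 0.48, q = 0.00932). The transglutaminases Tgm1, Tgm3 and Tgm5 did not pass. Tgm1 was listed at 167 FPKM in carcinomas and 78.7 FPKM in normal tongues (1.09 ± 0.73). The median log2 fold change of these 18 was 0.30.

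Of 27 tested regulators of terminal differentiation, 4 rose and 1 fell in the same deposited table, with a median log2 fold change of 0.69. The shares of all tested rows were 3.07% higher and 3.19% lower. The risers were the ETS factor Elf3 (2.43 ± 0.52, q = 0.000315), the POU-domain factor Pou3f1 (2.20 ± 0.59, q = 0.0115), the zinc-finger factor Ovol1 (1.66 ± 0.49, q = 0.0291) and Tfap2a (1.60 ± 0.46, q = 0.02596). Pou3f1 was still scarce, at 5.06 FPKM in carcinomas and 1.10 FPKM in normal tongues. The other POU-domain factor of that list, Pou2f3, was listed at 1.37 FPKM in carcinomas and 1.78 FPKM in normal tongues and did not pass (−0.38 ± 0.63). Satb1, a chromatin organiser below the naming limit of 5 FPKM and named as the only gene of that list to fall, stood at 1.42 FPKM in carcinomas and 4.35 FPKM in normal tongues (−1.61 ± 0.49, q = 0.0375). The AP-1 genes of that list, Fos, Fosl1, Fosl2, Jun and Junb, had log2 fold changes of 0.33 to 3.50, and none passed. Of 14 tested S100 receptors and partners 0 rose and 1 fell, beside 3.07% and 3.19% of all tested rows. At an unadjusted p under 0.05 there were 1 higher and 2 lower, beside 8.22% and 12.5%. The gene that fell was the fatty acid and S100 receptor Cd36 (34.97 FPKM in carcinomas and 140 FPKM in normal tongues, q = 0.0181). Anxa1, singled out after its value was seen as the S100a11 partner, was listed at 1239 FPKM in carcinomas and 150 FPKM in normal tongues and did not pass (3.05 ± 1.04, q = 0.104).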

How the data were processed

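The file analysed holds the authors' own test of both groups, deposited with 1 FPKM per gene and group and no value per sample, so no new test was made. Per the file headers it also gives a p-value, a q-value, a statistic and the log2 fold change (4-NQO over control). Per the submitters' processing notes GSNAP 2011.11.17, edgeR and the human build GRCh37 were named without a role; the program behind the table is not given in the sources used here. Deposited fold changes matched the log2 ratio of the FPKM values to within 4.88e-05, and two-sided normal p-values of the statistic matched the deposited p-values to within 2.81e-06, so a standard error was taken as fold change over statistic. The code of this step and of the Benjamini-Hochberg alternative was checked on simulated rows. Their statistic was built from a known error, so recovering it was certain and says nothing on the error of these samples. Status OK held for 15783 of 23235 rows. Failed estimates (HIDATA) list an exact 0 in at least 1 group where named here.

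Loci differ from GRCm38.p6 (1.02% of 20601 genes had the same start); starts were shifted to count from 1 and not converted. Promoters came from RefSeq by symbol and transcripts from GENCODE M21. All members past q under 0.05 and those reaching 5 FPKM in either group were named; outside the cluster, called genes of at least 5 FPKM, up to 4 per list by fold size, and any gene outside the cluster that is named beyond this rule was chosen after its values were seen. Members and lists were chosen with earlier results of these data known. Sample groups came from the titles. Python 3.11.15, pandas 2.3.3 and scipy 1.17.1 were used. Alternatives were other thresholds, adjustment, pseudocounts, a filter and re-centring.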

Additional observations from a re-analysis of the deposited data

How the results depend on the processing

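The 13 members higher in carcinomas numbered within 1.5 times of that under each alternative run. The 2 lower members became 1 at q under 0.01 (1.65% of tested rows lower), 1 with an added limit of 4-fold (1.19%) and 1 with that limit on a pseudocount of 1 FPKM (0.608%), and 6 with Benjamini-Hochberg adjustment restricted to tested rows (5.02%), which added Tchh, Hrnr, Lce1h and Lce1i. Among listed genes outside the cluster, 7 higher and 2 lower became 4 and 0 at q under 0.01 (1.96% and 1.65% of tested rows), 4 and 0 at 4-fold (2.48% and 1.19%), and 3 and 0 at 4-fold with the pseudocount (1.12% and 0.608%); these were chosen after seeing the data. The Sprr2 median of 6.98 was 6.18 with a pseudocount of 1 FPKM, and the other subfamily medians moved by less than their members' median error. Single fold changes moved beyond their error for 5 of 55 members with a pseudocount of 1 FPKM and for none with 0.1 FPKM or re-centring. A pseudocount can only move a fold change toward 0 and cannot change its sign. The re-centring shift was −0.02. All 12 Lce1 fold changes of the run (−1.65 to −0.41) stayed negative under the 3 alternatives tried. Neither a pseudocount nor so small a shift could have changed those signs, so this is no check of them. No replicate could be left out, since the file has 1 value per group. No paired analysis was possible because the groups share no sample number and the file has no value per sample.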

Other observations

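Inside the interval from S100a1 to S100a10 lie 10 further rows that the naming rule does not take. Of these, 5 were tested and 2 were called in the authors' deposited table. Among all tested rows 6.26% were called, 3.07% higher and 3.19% lower. Pglyrp4, a peptidoglycan recognition protein that binds bacterial cell walls, rose, at 16.3 FPKM in carcinomas and 2.63 FPKM in normal tongues (log2 fold change 2.63 ± 0.68, q = 0.00684). Its relative Pglyrp3 did not pass, at 7.64 FPKM in carcinomas and 7.07 FPKM in normal tongues (0.11 ± 0.55). Prr9, a proline-rich gene beside loricrin, fell, at 3.44 FPKM in carcinomas and 13.3 FPKM in normal tongues (−1.95 ± 0.60, q = 0.0466). The row 2310001H18Rik has the RefSeq symbol Lce3e and was listed at 354 FPKM in carcinomas and 441 FPKM in normal tongues (−0.32 ± 0.56), a fold change within the range of the 4 Lce3 members. The row 2310050C09Rik, which lies next to Lce1l, was listed at 19.6 FPKM in carcinomas and 45.6 FPKM in normal tongues (−1.22 ± 0.50, q = 0.286).

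S100 genes on other chromosomes were scarce in both groups. S100b, an S100 protein of Schwann cells, was listed at 1.502 FPKM in carcinomas and 3.98 FPKM in normal tongues (−1.41 ± 0.65, q = 0.459 in the authors' deposited table), and S100g at 3.76 FPKM in carcinomas and 1.56 FPKM in normal tongues (1.27 ± 1.93).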
